A study of Rattus norvegicus with 6 samples.

Results

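The 8 genes described here encode the auxiliary subunits of voltage-gated calcium channels in the rat. They are the 4 α2δ genes, Cacna2d1 to Cacna2d4, and the 4 β genes, Cacnb1 to Cacnb4. They were taken by name, not by a measured value, but with earlier results of these data known. All 8 are among the 14346 genes listed in at least 1 of the 6 libraries. RNA was sequenced from dorsal root ganglia, which hold the cell bodies of sensory neurons next to the spinal cord, at day 7 after a sham operation (3 libraries) or after partial sciatic nerve ligation (pSNL, 3 libraries). A ligature closed around some of the axons of this nerve leaves damaged and spared fibres side by side, and their cell bodies share a ganglion. Strain, sex, age, the ganglia taken and the number of animals behind a library are not given in the labels, so p-values rest on the spread between libraries, part of which may be technical. The question put to these genes is whether their RNA differs between injured and sham-operated ganglia.

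A high-voltage-activated calcium channel consists of a pore-forming α1 subunit, a β subunit that binds the pore from the cytoplasmic side, and an α2δ subunit that sits on the outer face of the membrane. The β subunits help the pore reach the surface and tune its gating. The α2δ subunits raise the amount of channel at the surface and at presynaptic terminals, and α2δ-1 and α2δ-2 bind gabapentin and pregabalin, drugs used against neuropathic pain. Both families thus shape how much calcium enters the terminals of sensory neurons.

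The libraries held 4310643 to 4416121 estimated counts. On these raw totals 1 CPM (counts scaled to library size) was 4.31 to 4.42 counts, and the scaled totals used for CPM differ slightly. Atf3, Gal, Npy, Sprr1a, Sox11 and Gap43, known injury genes used to check the labels, each had their lowest pSNL library above their highest sham library. Of 12 markers of sensory neurons 11 were listed, and Prdm12 was listed in no library. The 11 summed to 25393 to 30366 CPM in sham and 25449 to 26576 CPM in pSNL. Of these 11, 5 had a positive fold change (median log2 fold change -0.17), against 49.4% of all tested genes. Between groups, 4 of the 11 did not overlap, where 11.1% of all tested genes were higher and 10.4% lower without overlap. Summed levels of markers of some other cell types and tissues moved with a group or with single libraries. The 8 macrophage markers summed to 157 to 188 CPM in sham and 257 to 429 CPM in pSNL. Of these 8, 7 had a positive fold change, against 49.4% of all tested genes. Between groups, 2 of the 8 did not overlap, where 11.1% of all tested genes were higher and 10.4% lower without overlap. The 5 satellite glia markers summed to 6307 to 6738 CPM in sham and 4972 to 6069 CPM in pSNL, but did not move together. Among them, 2 had positive log2 fold changes, Kcnj10 (0.97) and Cdh19 (0.83), while Fabp7 was at -1.24. The summed levels of Schwann cell and of vessel markers overlapped between groups. The 8 central glia markers summed to 1893 CPM in sham replicate 3 and to 25.7 to 57.8 CPM elsewhere. The 12 listed skeletal muscle markers summed to 616 CPM in sham replicate 3, 1198 CPM in pSNL replicate 3 and 19.97 to 27.0 CPM in the other libraries, with Mylpf and Ryr1 listed in none. In bulk tissue, fewer cells of a type and less RNA per cell cannot be told apart.

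Of the 8 genes, 7 had enough counts to be tested and none passed an adjusted p of 0.05 in edgeR's quasi-likelihood test, where 0.46% of all 11091 tested genes passed it. The unadjusted p was under 0.05 for 2, Cacna2d1 and Cacnb1, both higher in pSNL, against 9.41% of all tested genes that were higher at that p. DESeq2 called 1 of the 8, Cacna2d1, and 2.59% of the 12335 genes it gave an adjusted p. A positive fold change was seen in 5 of the 7 and in 49.4% of all tested genes. For Cacna2d1 and Cacnb1 every pSNL library exceeded every sham library, as for 11.1% of all tested genes, and for Cacna2d3 every pSNL library was lower, as for 10.4%. The other 4 tested genes overlapped between groups.

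**Figure D1:**
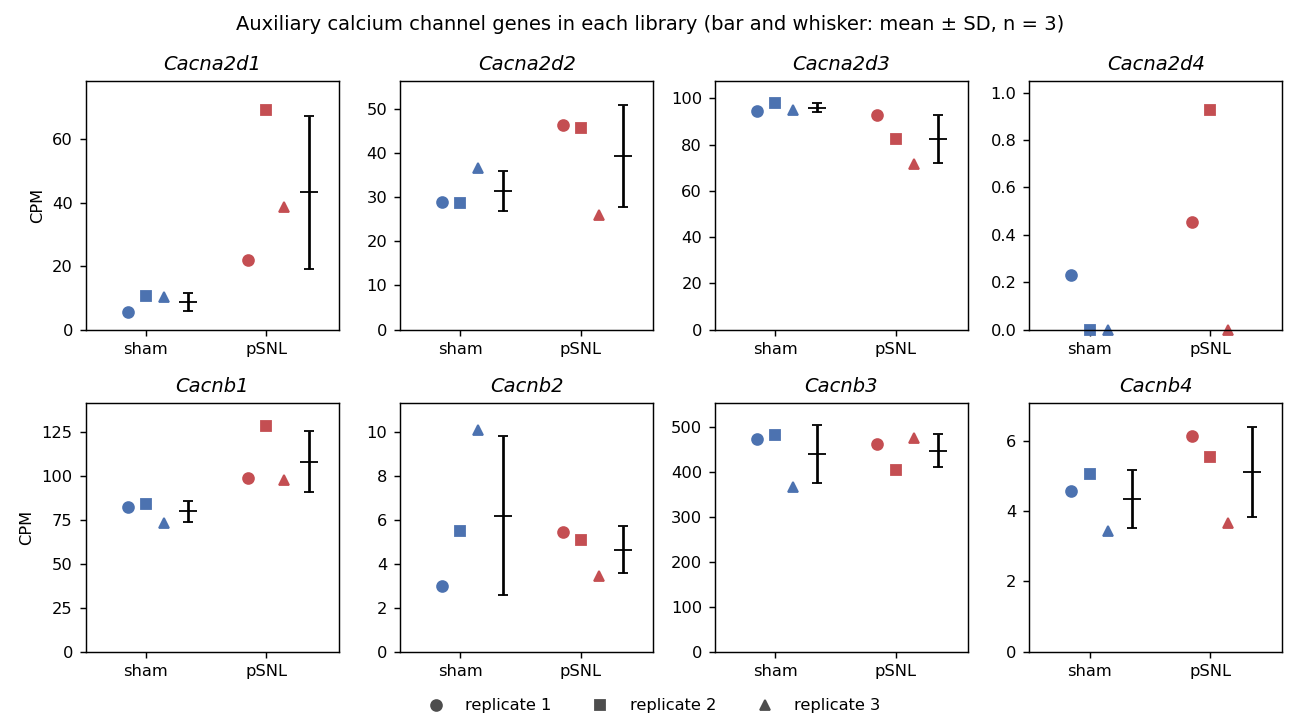
CPM (vertical axes from 0, scaled by gene) of the 8 auxiliary subunit genes in each sham (blue) and pSNL (red) library, with the mean ± SD beside the points (n = 3; left out for Cacna2d4, which has 0 to 4 counts per library). Cacna2d1 lies between 5.50 and 10.6 CPM in sham and between 21.8 and 69.4 CPM in pSNL, while Cacnb3 overlaps between the groups.

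To compare genes with each other, levels were taken per length as the authors' FPKM, which divides counts by the gene length in the files and by the library total. The deposited lengths were 3276 to 3964 bases for the α2δ genes and 2520 to 3927 bases for the β genes, and each was the same in every library that lists the gene. In sham ganglia the order from high to low was Cacnb3, Cacna2d3, Cacnb1, Cacna2d2, Cacna2d1, Cacnb2, Cacnb4 and Cacna2d4. Cacnb3 was at 173 ± 23.6 FPKM (SD, n = 3), above 95% of all tested genes. Cacna2d3 followed at 28.9 ± 0.59 FPKM and Cacnb1 at 24.0 ± 1.47 FPKM. Cacna2d1, at 2.19 ± 0.72 FPKM, stood above 11.1% of tested genes only. Its sham levels overlapped those of Cacnb2 (1.56 ± 0.93 FPKM), which in turn overlapped those of Cacnb4 (1.13 ± 0.20 FPKM), so the order of those neighbours is not separated by the libraries. All other neighbours in the sham order did not overlap.

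In pSNL ganglia Cacnb3 remained first at 176 ± 14.7 FPKM. Cacnb1 (32.6 ± 5.17 FPKM) stood above Cacna2d3 (24.9 ± 3.52 FPKM), the reverse of the sham order, and in neither group did the levels of this pair overlap. Cacna2d1 reached 10.8 ± 5.98 FPKM, above 43.1% of tested genes, and overlapped Cacna2d2 (11.1 ± 3.37 FPKM). Cacnb4 and Cacnb2 overlapped near the bottom of the order, at 1.34 ± 0.35 and 1.18 ± 0.28 FPKM.

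The α2δ family as a whole was at 37.8, 40.1 and 42.1 FPKM in sham replicates 1 to 3 and at 47.4, 55.3 and 38.2 FPKM in pSNL replicates 1 to 3. The sums overlapped between groups, and without Cacna2d1 they were 37.8 ± 1.58 FPKM in sham and 36.2 ± 6.78 FPKM in pSNL. The make-up of the family differed more than its total. Cacna2d1 was 3.60%, 6.52% and 6.20% of the α2δ FPKM in sham replicates 1 to 3 and 11.6%, 31.2% and 24.9% in pSNL replicates 1 to 3. Cacna2d3 was 69.0% to 74.8% of it in sham and 45.1% to 60.1% in pSNL, and Cacna2d2 was 20.05% to 24.8% and 19.0% to 28.0%. The shares of Cacna2d1 and Cacna2d3 did not overlap between groups, and those of Cacna2d2 did. Shares of a sum are tied to each other, so a larger share of 1 gene lowers the others.

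**Figure D2:**
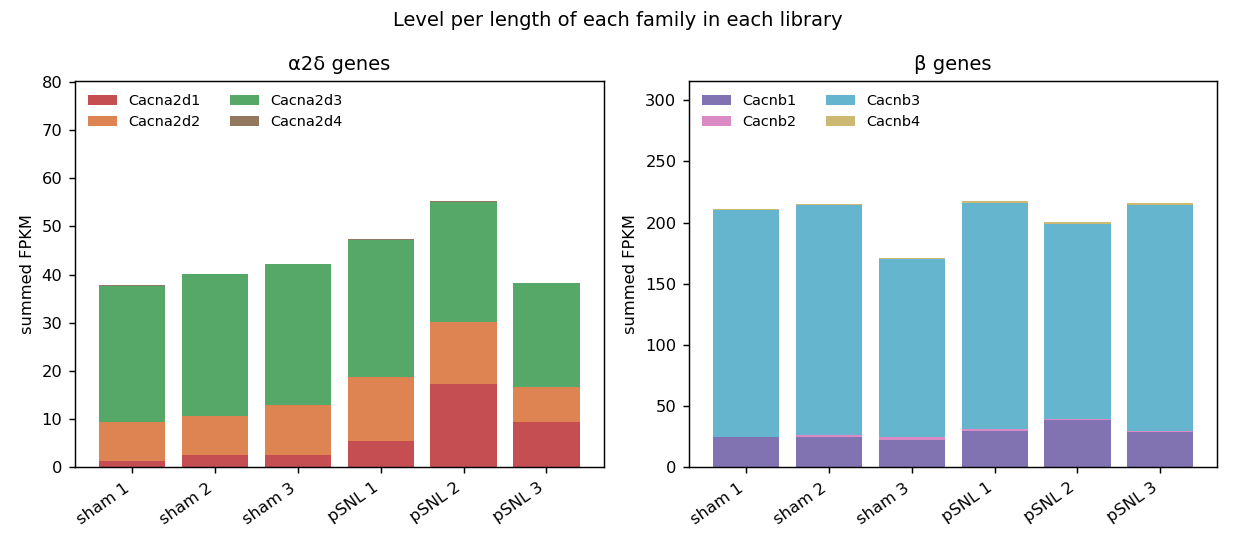
FPKM (vertical axes, summed over genes) of the 4 α2δ genes (left) and the 4 β genes (right) in each of the 6 libraries, stacked by gene. Cacna2d1 (red, at the foot of the left bars) takes 3.60% to 6.52% of the α2δ sum in sham and 11.6% to 31.2% in pSNL, and Cacnb3 fills most of every β bar.

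The β family was dominated by 1 gene in both groups. Cacnb3 was 85.0% to 87.5% of the β FPKM in sham and 79.4% to 85.7% in pSNL, and Cacnb1 was 11.6% to 13.0% and 13.5% to 19.2%. Cacnb2 and Cacnb4 together filled the small remainder. The summed β level was 199 ± 24.4 FPKM in sham and 211 ± 9.45 FPKM in pSNL, which overlapped. It exceeded the summed level of the 7 high-voltage-activated pore genes (Cacna1a to Cacna1f and Cacna1s) in every library, by 6.06-fold to 7.41-fold in sham and 5.75-fold to 7.05-fold in pSNL. For α2δ, the sum was 131% to 149% of the pore sum in sham and 125% to 158% in pSNL.

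Cacna2d1 (gene ID 25399) encodes α2δ-1, the main target of gabapentin. Its level was 5.50, 10.6 and 10.3 CPM in sham replicates 1 to 3 and 21.8, 69.4 and 38.5 CPM in pSNL replicates 1 to 3. The lowest pSNL library was thus above the highest sham library, and pSNL replicate 2 stood well above the other 2 of its group. The log2 fold change was 2.29 ± 0.51 (SE; 95% interval 1.04 to 3.54), a 4.90-fold difference with an interval of 2.06-fold to 11.6-fold, and the adjusted p in edgeR's quasi-likelihood test was 0.127 (unadjusted p = 0.00433). Of all tested genes, 0.487% had a log2 fold change at least as large. The gene rested on 115 sham counts and 564 pSNL counts, summed over libraries. Within pSNL its coefficient of variation was 55.8%, against 7.29% from counting alone. The files count 3 RefSeq transcripts of this gene together, so splice forms were not told apart.

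Cacna2d1 was called under 3 of the 11 alternative settings, among them DESeq2 and the fit without pSNL replicate 1. DESeq2 gave an adjusted p of 6.41e-07 for a log2 fold change of 2.29. Without pSNL replicate 1, the pSNL library with the lowest level, edgeR's adjusted p was 0.0237 and the log2 fold change 2.62. Leaving out any other library kept the adjusted p between 0.163 and 0.328 and the log2 fold change between 1.77 and 2.44. Over all 11 alternative settings the adjusted p ran from 6.41e-07 to 0.328 and the difference from 3.41-fold to 6.14-fold. Skeletal muscle also carries α2δ-1, and its markers were high in sham replicate 3 and pSNL replicate 3, as given above. Central glia markers were high in sham replicate 3. Macrophage markers summed to 257, 429 and 417 CPM in pSNL replicates 1 to 3. The part of these 3 marker lists in the result was not tested.

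The injury marker Atf3, a transcription factor switched on in cut sensory neurons, stood at 97.6, 294 and 234 CPM in pSNL replicates 1 to 3, which is the same order of libraries as for Cacna2d1. In log2 units above the sham mean, Cacna2d1 was at 1.32, 2.97 and 2.13 in those libraries, Sox11 at 1.35, 2.34 and 2.16, and Gap43 at 0.62, 1.27 and 1.01. Gal was at 3.89, 4.72 and 4.34 and Npy at 2.25, 3.50 and 3.39, in the same order of libraries. Sprr1a was at 3.79, 4.70 and 4.87, with its highest value in pSNL replicate 3. All 6 injury genes were thus lowest in pSNL replicate 1, and 5 of the 6 were highest in pSNL replicate 2. The macrophage marker sum was also lowest in pSNL replicate 1 and highest in pSNL replicate 2 among the pSNL libraries. How many of all tested genes share this order was not counted, and a link to Cacna2d1 was not tested.

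Cacna2d2 (gene ID 300992) encodes α2δ-2, the other gabapentin-binding subunit. It was at 28.9, 28.7 and 36.5 CPM in sham replicates 1 to 3 and at 46.3, 45.5 and 25.9 CPM in pSNL replicates 1 to 3. In pSNL replicates 1 and 2 it exceeded every sham library, while pSNL replicate 3 was below every sham library. The log2 fold change was 0.32 (95% interval -0.18 to 0.83; edgeR adjusted p = 0.528), and 0.55 without pSNL replicate 3 (adjusted p = 0.118, and 0.118 to 0.831 over the alternatives). Per length, Cacna2d2 was above Cacna2d1 in all sham libraries and below it in pSNL replicates 2 and 3. The ratio of Cacna2d1 to Cacna2d2 FPKM was 0.17 to 0.32 in sham, and 0.42, 1.34 and 1.31 in pSNL replicates 1 to 3.

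Cacna2d3 (gene ID 306243), which encodes α2δ-3, was the most abundant α2δ gene in each library of both groups. Its level was 94.4, 98.2 and 95.1 CPM in sham and 92.9, 82.5 and 71.8 CPM in pSNL replicates 1 to 3. Sham libraries differed by less than counting error alone (coefficient of variation 2.10%, against 4.89% from counting), and each pSNL library was lower, pSNL replicate 1 by little. The log2 fold change was -0.22 ± 0.11 (SE; 95% interval -0.46 to 0.02), and the gene did not pass the threshold (edgeR adjusted p = 0.370). Leaving out pSNL replicate 3 moved the value to -0.13 and leaving out pSNL replicate 1 moved it to -0.31. Cacna2d4 (gene ID 312668), which is best known from the retina, was close to absent. Its summed counts were 1 in sham and 6 in pSNL, the latter from 2 libraries, and it was not tested. The exact 95% counting intervals, 0.025 to 5.57 and 2.20 to 13.1 counts, overlapped and cover counting error only.

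**Figure D3:**
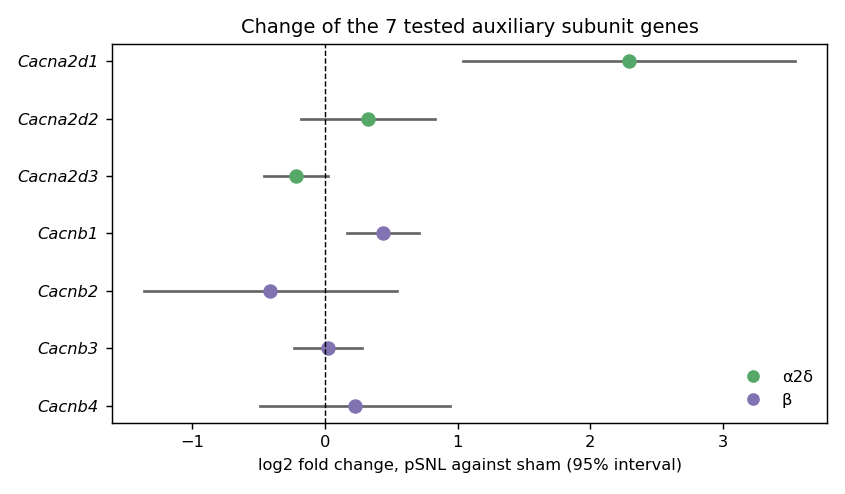
Log2 fold change of pSNL against sham (horizontal axis) for the 7 tested auxiliary subunit genes, α2δ genes in green and β genes in purple, with 95% intervals from edgeR's quasi-likelihood fit (3 libraries a group). The unadjusted intervals of Cacna2d1 (1.04 to 3.54) and Cacnb1 (0.16 to 0.71) lie above 0, and those of the other 5 genes span 0, from -0.24 to 0.28 for Cacnb3.

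Cacnb1 (gene ID 50688) encodes β1, the partner of the skeletal muscle channel and also a neuronal subunit. It was at 82.5, 84.0 and 73.3 CPM in sham replicates 1 to 3 and at 98.8, 128.3 and 97.9 CPM in pSNL replicates 1 to 3. All 3 pSNL libraries exceeded all 3 sham libraries, and pSNL replicate 2 was again the highest. The log2 fold change was 0.44 ± 0.12 (SE; 95% interval 0.16 to 0.71), a 1.35-fold difference, with an adjusted p of 0.132 in edgeR's test (unadjusted p = 0.00513) and 0.116 in DESeq2. It was not called under any of the 11 alternative settings, with an adjusted p of 0.108 to 0.402 and 1.23-fold to 1.42-fold differences. Cacna1s, the pore subunit of muscle, had 15 counts in sham replicate 3, 31 in pSNL replicate 3 and 1 to 4 in each other library. The part of muscle RNA in the Cacnb1 values was not tested.

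Cacnb3 (gene ID 25297) encodes β3, a neuronal subunit often paired with the N-type pore. It was at 474, 481 and 365 CPM in sham replicates 1 to 3 and at 462, 404 and 474 CPM in pSNL replicates 1 to 3. The groups overlapped throughout, with sham replicate 3 the lowest library. The log2 fold change was 0.02 (95% interval -0.24 to 0.28; edgeR adjusted p = 0.948), so differences outside 0.85-fold to 1.22-fold lie beyond the interval. With 5749 and 5850 counts over the groups, counting error was 2.28% and 2.26% per library, well under the spread between libraries of 14.7% and 8.34%. The sign of this small value changed without sham replicate 3 (-0.10) and without pSNL replicate 3 (-0.03).

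Cacnb2 (gene ID 116600), the main β subunit of the heart, was scarce. It was at 2.98, 5.51 and 10.1 CPM in sham and at 5.45, 5.09 and 3.44 CPM in pSNL replicates 1 to 3. The high sham value came from sham replicate 3, the library with 1893 CPM of central glia markers, whose part in the result was not tested. The log2 fold change was -0.41 (95% interval -1.36 to 0.54; edgeR adjusted p = 0.689), and 0.13 without that library. Cacnb4 (gene ID 58942), a β subunit known from the cerebellum, was at 4.58, 5.05 and 3.45 CPM in sham and 6.13, 5.55 and 3.67 CPM in pSNL replicates 1 to 3. These overlapping values gave a log2 fold change of 0.23 (95% interval -0.49 to 0.94; edgeR adjusted p = 0.781). Each of these genes had 57 to 81 counts per group of libraries, and their intervals span values on both sides of 0.

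The pore subunits to which α2δ and β bind had no gene past the threshold among 7 tested of 10 (edgeR's test). The unadjusted p was under 0.05 for 2, where 15.5% of all tested genes were, and DESeq2 called none. Their median log2 fold change was 0.07, against -0.0024 over all tested genes. Cacna1b, the N-type pore, had means of 121 ± 2.62 (sham) and 144 ± 15.4 CPM (pSNL) (log2 fold change 0.25, edgeR adjusted p = 0.261), with no overlap between groups. Cacna1c, an L-type pore, was at 28.0 ± 5.04 and 38.8 ± 5.50 CPM (0.47, adjusted p = 0.209). The T-type pores are not known to need these auxiliary subunits. Among them Cacna1h, the most abundant by CPM, was at 63.9 ± 8.76 and 75.4 ± 20.1 CPM (0.24, edgeR adjusted p = 0.613). Cacna1g and Cacna1i had negative values of -1.54 and -0.83 (adjusted p = 0.527 and 0.502). For Cacna1g the value rested on sham replicate 3, where it was at 24.1 CPM against 2.52 to 3.90 CPM in the other 5 libraries, and without that library it was 0.34. The value of Cacna1i was -1.51 without pSNL replicate 2 and -0.46 without sham replicate 3. Of the γ subunits, a related family of which most members regulate glutamate receptors, 5 of 8 were tested and none passed in edgeR's test (the unadjusted p was under 0.05 for 1, a share near the 15.5% of all tested genes, and none was called by DESeq2). Cacng4 was at 11.6 ± 1.57 and 16.1 ± 1.05 CPM (0.47, adjusted p = 0.260) with no overlap between groups. Cacng2, Cacng7 and Cacng5 had log2 fold changes of 0.37, -0.06 and -0.15 (edgeR adjusted p = 0.703, 0.813 and 0.850).

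**Figure D4:**
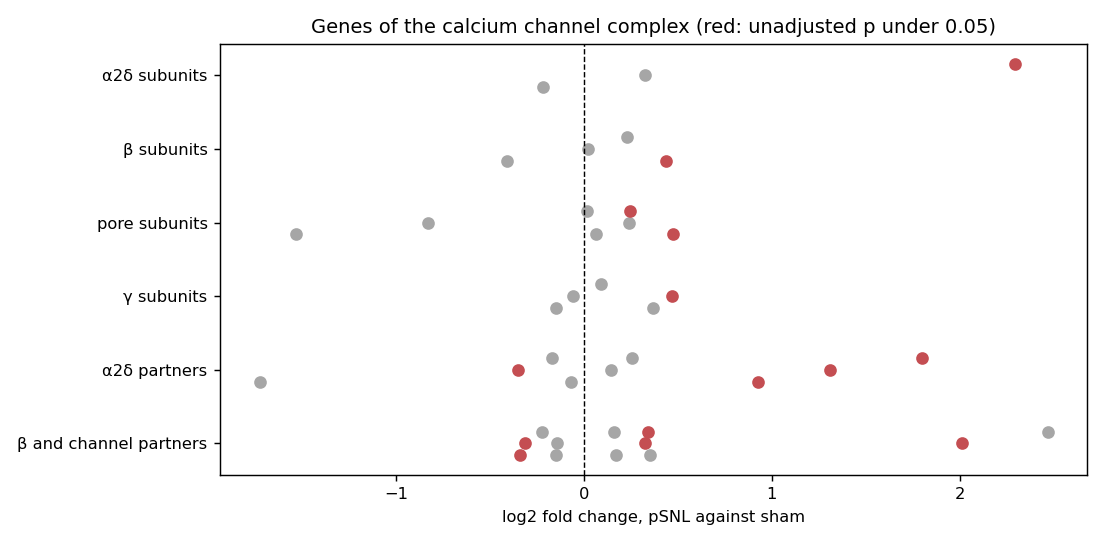
Log2 fold change of pSNL against sham (horizontal axis) for each tested gene of the auxiliary subunits, pore subunits, γ subunits and known partners (rows; vertical scatter within a row only separates points), with genes at an unadjusted p under 0.05 in red. No gene shown passed the adjusted threshold in edgeR's test; Cacna2d1 (2.29), Rrad (2.01) and Thbs1 (1.80) are the rightmost red points.

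Among 13 known partners of α2δ, 9 were tested and none passed in edgeR's test, although the unadjusted p was under 0.05 for 4 (15.5% of all tested genes) and 3 were called by DESeq2 (2.59% of the genes it gave an adjusted p). The 3 thrombospondins Thbs1, Thbs2 and Thbs4, secreted matrix proteins of which some bind α2δ-1, were those 3, and each was higher with no overlap between groups, as were 11.1% of all tested genes. Thbs4 was at 22.2, 18.6 and 16.5 CPM in sham and 22.7, 65.2 and 54.4 CPM in pSNL replicates 1 to 3 (log2 fold change 1.31, edgeR adjusted p = 0.206). Its pSNL replicate 1 was barely above sham replicate 1, and without it the adjusted p was 0.00198 (0.00198 to 0.481 over the 11 alternatives). Thbs1 was at 2.98 ± 1.00 and 10.5 ± 4.53 CPM (1.80, adjusted p = 0.082) and Thbs2 at 15.2 ± 2.06 and 29.0 ± 7.76 CPM (0.93, adjusted p = 0.0861). Without pSNL replicate 1, Thbs2 had an adjusted p of 0.0135 (0.0135 to 0.335 over the alternatives), and without pSNL replicate 3, Thbs1 had an adjusted p of 0.0414 (0.016 to 0.292). Comp, the fourth tested thrombospondin, was at 16.7 ± 2.11 and 15.9 ± 2.77 CPM (-0.07). Grin1, the obligatory subunit of NMDA receptors, with which α2δ-1 can associate, was at 209 ± 37.6 and 164 ± 20.1 CPM (-0.35, adjusted p = 0.272). Without sham replicate 3 the log2 fold change of Grin1 was -0.20. The lowest value of this list was Grin2d, named after its values were seen, at -1.73, which was -0.47 without sham replicate 3.

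Of 14 partners and regulators of β or of the channel complex, 12 were tested and none passed in edgeR's test (the unadjusted p was under 0.05 for 5, against 15.5% of all tested genes, and none was called by DESeq2). Rrad, a small GTPase that binds β and inhibits the channel, was at 0.69, 1.84 and 2.07 CPM in sham and 3.63, 6.01 and 9.17 CPM in pSNL replicates 1 to 3 (log2 fold change 2.01, edgeR adjusted p = 0.0891). Its groups did not overlap, and the adjusted p was 0.0486 without pSNL replicate 1 (0.0486 to 0.283 over the alternatives). Ahnak, a very large scaffold protein that binds β, was at 534 ± 85.5 and 668 ± 27.2 CPM (0.32, adjusted p = 0.221). The calcium-binding regulator Cabp1 was at 224 ± 8.12 and 180 ± 23.3 CPM (-0.31, adjusted p = 0.186). Cbarp, which binds β, was at 172 ± 27.2 and 136 ± 3.19 CPM (-0.34, adjusted p = 0.192). Without sham replicate 3 the value was 0.19 for Ahnak and -0.20 for Cbarp. For Cabp1 and Cbarp, the highest pSNL library was below the lowest sham library, as for 10.4% of all tested genes. The largest value of the list, named after its values were seen, was Stac2, an adaptor of L-type channels, at 2.29, 3.67 and 40.9 CPM in sham and 48.4, 123.2 and 88.5 CPM in pSNL replicates 1 to 3. Its log2 fold change of 2.47 (adjusted p = 0.408) was 4.85 without sham replicate 3 (adjusted p = 0.105, and 0.105 to 0.710 over the alternatives).

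The genes whose profile over the 6 libraries was most like that of Cacna2d1 were found by the root mean square difference between log2 CPM values, each gene centred on its own mean, over 9959 tested genes with a symbol and at least 5 CPM on average. The nearest were Cdhr5 (0.17 log2 units), Flrt3 (0.17), C4a (0.30), Thbd (0.32), Ciita (0.32) and Csf1 (0.34), where the median over all candidates was 1.22. Each of the 6 was lowest in pSNL replicate 1 and highest in pSNL replicate 2 among the pSNL libraries, as Cacna2d1 was. They were chosen for likeness over these same libraries, so their shared order and their tests are a description and no support. Flrt3, a membrane protein of axon guidance, was at 8.48, 13.3 and 10.6 CPM in sham and 29.1, 84.6 and 44.7 CPM in pSNL replicates 1 to 3. Cdhr5, a cadherin family member, was at 0.92, 2.07 and 2.53 CPM in sham and 6.13, 14.3 and 9.40 CPM in pSNL. Of the 6, Cdhr5 passed the threshold (edgeR adjusted p = 0.049) and kept its call in 1 of 6 fits with 1 library left out. Reads of C4a may be shared with its close copy C4b, so its level is uncertain. Atf3 ranked 101 in likeness (0.73) and Gal 4603 (1.21), since this measure counts the size of the change as well as its order.

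**Figure D5:**
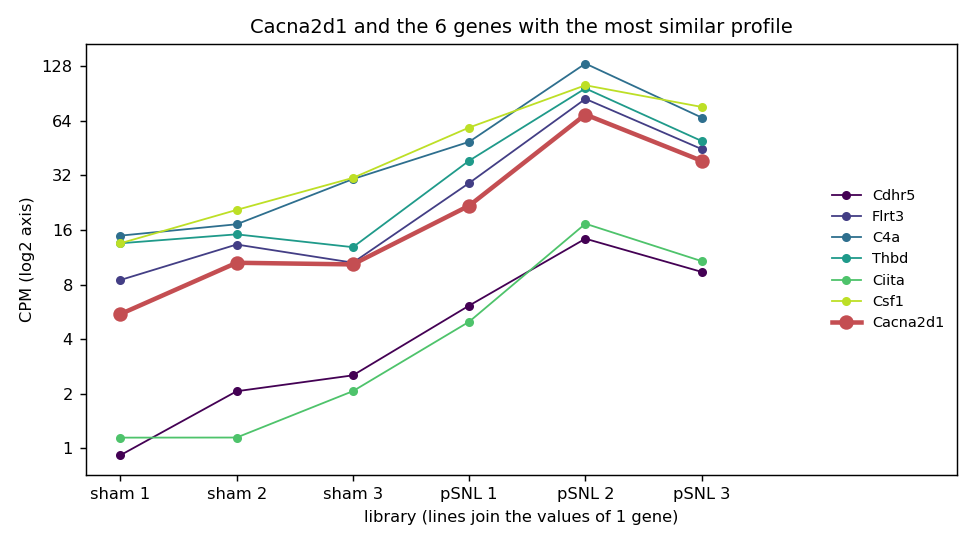
CPM (vertical axis, log2 scale) of Cacna2d1 (thick red) and the 6 genes with the most similar profile in each sham and pSNL library; lines only join the values of 1 gene, since replicates have no order. The 6 genes were chosen for this likeness. All 7 are highest in pSNL replicate 2, where Cacna2d1 is at 69.4 CPM and Flrt3 at 84.6 CPM.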

How the data were processed

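RNA sequencing of rat dorsal root ganglia gave 1 deposited file per library, 3 sham and 3 pSNL, grouped by sample title. Per the file headers, the authors' files hold an expected count and an FPKM value per gene, with a gene length. The expected counts deposited by the authors are estimates, of which 89.1% to 89.6% are whole (within 0.00001). FPKM was computed by the authors per kilobase of that length and scaled to library size. Of the other columns, the gene length is given in bases per the file headers. Tools listed in the submitters' processing notes are CASAVA 1.4 and Bowtie2. Quantifier, annotation, build and use of strand were not given in the sources used here. How a quantifier shares reads between related genes or transcripts can move their estimates. Genes missing from a library's file were set to 0. Gene IDs were matched to RefSeq symbols (assembly GRCr8, names only): 14227 by gene ID, 11 by transcript accession and 108 kept by ID.

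Expected counts were rounded and fitted in edgeR 4.0.16 (R 4.3.3) with TMM factors. The fit was quasi-likelihood with the robust option, after edgeR's default expression filter, and p-values were adjusted by Benjamini-Hochberg over 11091 genes with a threshold of 0.05. CPM use TMM-scaled totals. SE and 95% intervals of log2 fold changes come from the test statistic and are not adjusted. DESeq2 1.42.0, 2 other scalings, no filter, a replicate block and leaving out each library were alternatives. The fit was checked on simulated counts. Members and lists were chosen with earlier results of these data known. The rule for named genes takes all 8 members, genes past the threshold and up to 4 with the smallest p in each surrounding list, and the 6 genes nearest to Cacna2d1 in profile (log2 CPM, prior count 2). Libraries of a group differed by more than sampling noise (chi-square of 2.97 to 14.6 per degree of freedom), so none was counted as a copy. At 4.31 to 4.42 counts per CPM on raw library totals, scarce genes are imprecise, and intervals on summed counts cover counting error only.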

Additional observations from a re-analysis of the deposited data

How the results depend on the processing

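The number of auxiliary subunit genes past the threshold was 0 and became 1, Cacna2d1, under the replicate block, without pSNL replicate 1 and in DESeq2, so that it ranged from 0 to 1 with 1 library left out. Over all genes the count was 51, and it was 89 with no filter on low counts, 111 with the replicate block, 320 in DESeq2 and between 5 and 217 with 1 library left out. The 2 other scalings gave 48 and 63. Cacna2d1 had a log2 fold change of 2.23 and an adjusted p of 0.00291 with the replicate block. The labels do not say whether the numbers pair the libraries. Deviations of same-numbered libraries from their group means correlated at 0.03, 0.01 and 0.12 across genes, which are not independent. Sham replicate 3 correlated best with its own number, and sham replicates 1 (0.035 against 0.032) and 2 with another. Deviations from a mean of 3 libraries are tied to each other, so these values cannot decide whether the numbers pair the libraries. Without sham replicate 3 the value of Cacnb2 turned to 0.13 and that of Cacnb3 to -0.098, and without pSNL replicate 3 that of Cacnb3 was -0.025. With 1 library left out, Cacnb2 ranged from -0.74 to 0.13 and Cacnb3 from -0.098 to 0.089. The cause was not tested. The directions of the other 5 tested members held under all 11 settings. Rescaling FPKM to equal sums moved all 16 group levels by less than 1 SD. Counting error limits what can be seen of Cacnb2, Cacnb4 and Cacna2d4. For Cacnb2 in sham the spread between libraries (58.3%) was larger than counting error (19.2%).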
